A study of Mus musculus with 6 samples.

Results

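The heat shock proteins and chaperones were examined in regulatory T cells (Treg), as 81 of the 29199 genes in the count table. They were taken by symbol, as the Dnaja, Dnajb, Dnajc, Hspa, Hspb, Hspd, Hspe, Hsph, Hsp90, Bag and Cct genes together with Tcp1, and the 7 rows named as pseudogenes (symbols with -ps) were left out. The symbol rule itself uses no measured value, although it was set with earlier results of these data known. Of the 81 members, 77 had enough counts to be tested, among 18321 genes tested in all.

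Treg were sorted from the spleen of irradiated hosts (C57BL/6 J, or B6 mice carrying CD45.1) 21 days after a graft of equal parts of B6 and semi-allogeneic B6D2F1 bone marrow. Before transfer they had been expanded ex vivo from B6 Foxp3-Thy1.1 mice with IL-2, TGFb and beads coated with anti-CD3 and anti-CD28, and they were co-injected with naive conventional CD4 T cells (Tconv). All Treg were wild-type (WT). In 3 libraries the Tconv were WT, and in 3 they were HP1α KO, from mice with a floxed Hp1a allele deleted in the whole animal by CMV-cre. WT and mutant mice were sex-matched littermates aged 6 to 12 weeks. The labels do not say whether replicates came from separate hosts, so the p-values measure only the spread between these libraries, which may be technical. The comparison asked whether the genotype of the Tconv was accompanied by a difference in the RNA of the Treg around them. These groups of Treg are called the WT Tconv group and the HP1α KO Tconv group, and differences are given as the second over, or minus, the first.

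Chaperones bind proteins that are not folded and keep them from aggregating. HSP70 proteins grip short stretches of a client in a cycle driven by ATP, J-domain proteins (the Dnaj genes) deliver clients and trigger ATP hydrolysis, and the HSP110 and BAG proteins release the nucleotide. HSP90 then takes over clients such as kinases and steroid receptors, while the CCT ring folds actin and tubulin and HSP60 with HSP10 folds proteins in mitochondria. Many cytosolic members are induced by heat shock factor 1 (Hsf1), and those of the endoplasmic reticulum by the unfolded protein response. T cells are known to raise many of them when they are activated and grow.

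Library totals ran from 87421755 to 119078882 counts, and the members held 1.23% to 1.46% of the counts of a library. The Treg genes Foxp3, Il2ra, Ctla4 and Ikzf2 were present in every library, as were Cd3e and Cd4, which are not specific to Treg among CD4 T cells. Together these 6 had a summed level of 3802 to 4577 counts relative to the library total (CPM). Ikzf2 (1484 to 1930 CPM), Ctla4 (806 to 1322 CPM) and Cd4 (707 to 851 CPM) made up most of it, and Foxp3 was at 158 to 254 CPM. Of the CD8 T cell genes, Cd8a did not exceed 0.487 CPM and Cd8b1 was at 5.70 to 8.52 CPM. Replicate 3 of the WT Tconv group stood apart. Its 7 red cell genes summed to 6155 CPM, against 393 to 736 CPM in the other 5 libraries, and its 7 neutrophil genes to 1818 CPM, against 41.0 to 225 CPM. Its 6 macrophage genes summed to 178 CPM, against 12.8 to 47.7 CPM elsewhere, its 5 B cell genes to 24.4 CPM, against 14.2 to 21.5 CPM, and its 3 plasma cell genes to 11.9 CPM, against 0.750 to 3.55 CPM. Replicate 2 of the HP1α KO Tconv group was the lowest for Foxp3 (158 CPM, against 200 to 254 CPM in the other libraries), Il2ra (124, against 159 to 201 CPM) and Cd3e (151, against 185 to 221 CPM). It was also the lowest for Cd4 (707, against 716 to 851 CPM), but not for Ctla4 and Ikzf2. Here and below, CPM of single members are scaled by the TMM factors of edgeR, and those of marker lists by library totals alone.

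The level of the members differed widely. Per kilobase of the canonical transcript, the mean level over the 6 libraries was highest for Hspa8, the constitutive cytosolic HSP70, at 1436 CPM per kb. Hsp90ab1, the constitutive cytosolic HSP90, followed at 525 CPM per kb. Next were Hspa5 (BiP, the HSP70 of the endoplasmic reticulum) at 255 CPM per kb, Hsp90aa1, the inducible cytosolic HSP90, at 230 CPM per kb, and Hsp90b1, the HSP90 of the endoplasmic reticulum, at 196 CPM per kb. These 5 kept this order when levels were divided by the merged length of all exons, at 396, 263, 228, 177 and 90.8 CPM per kb. In the other families the highest levels per kilobase of the canonical transcript were those of Cct2 (149.5 CPM per kb), Hspe1 (134), Dnajc8 (99.0), Dnaja1 (72.4), Dnajb11 (62.8), Hspa4 (43.5), Bag6 (32.3) and Hspb11 (10.7). By merged length Dnaja2, Dnajb1 and Bag1 led their families instead, at 51.8, 35.4 and 27.1 CPM per kb. The heat-inducible small heat shock protein Hspb1 had 7 to 47 counts per library, and Hspa1a and Hspa1b, the classic inducible HSP70 genes, were at 2.73 and 4.78 CPM per kb even with the library in which they were highest.

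No member passed the adjusted threshold of the main test, in which no gene of the table passed either (edgeR's quasi-likelihood test with Benjamini-Hochberg adjustment, 0 of 18321 genes, 0%). At an unadjusted p under 0.05 there were 19 of 77 members (24.7%), beside a background of 14.5% of all genes tested. Of these, 15 were lower (19.5% of the members, beside 7.52% of all genes) and 4 were higher in Treg with HP1α KO Tconv (5.19%, beside 6.98% of all genes). In 18 members every library of Treg with HP1α KO Tconv was lower than every library of Treg with WT Tconv (23.4%, beside 11.6% of all genes), and in 9 every library was higher (11.7%, beside 11.5%). The share of lower members was above the background by either count, and that of higher members near it or below.

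DESeq2 is the tool that the study used, there with an added threshold on the fold change that no member called here would pass. Without that threshold it gave an adjusted p under 0.05 for 4 of 70 members with an adjusted value (5.71%), beside 4.35% of 12097 genes. All 4 were lower (3.03% of the genes were called lower). They were Dnaja1, Dnajb9, Dnajb6 and Hsph1. The 4 were all called again by DESeq2 when any library other than replicate 3 of the WT Tconv group was left out, and Dnajb6 missed the threshold without that replicate (adjusted p = 0.0553). By edgeR each of the 4 had an adjusted p of 0.209, ranging over the alternatives from 0.0217 to 0.437 for Dnaja1, 0.0380 to 0.437 for Dnajb9, 0.105 to 0.437 for Dnajb6 and 0.147 to 0.437 for Hsph1.

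**Figure D1:**
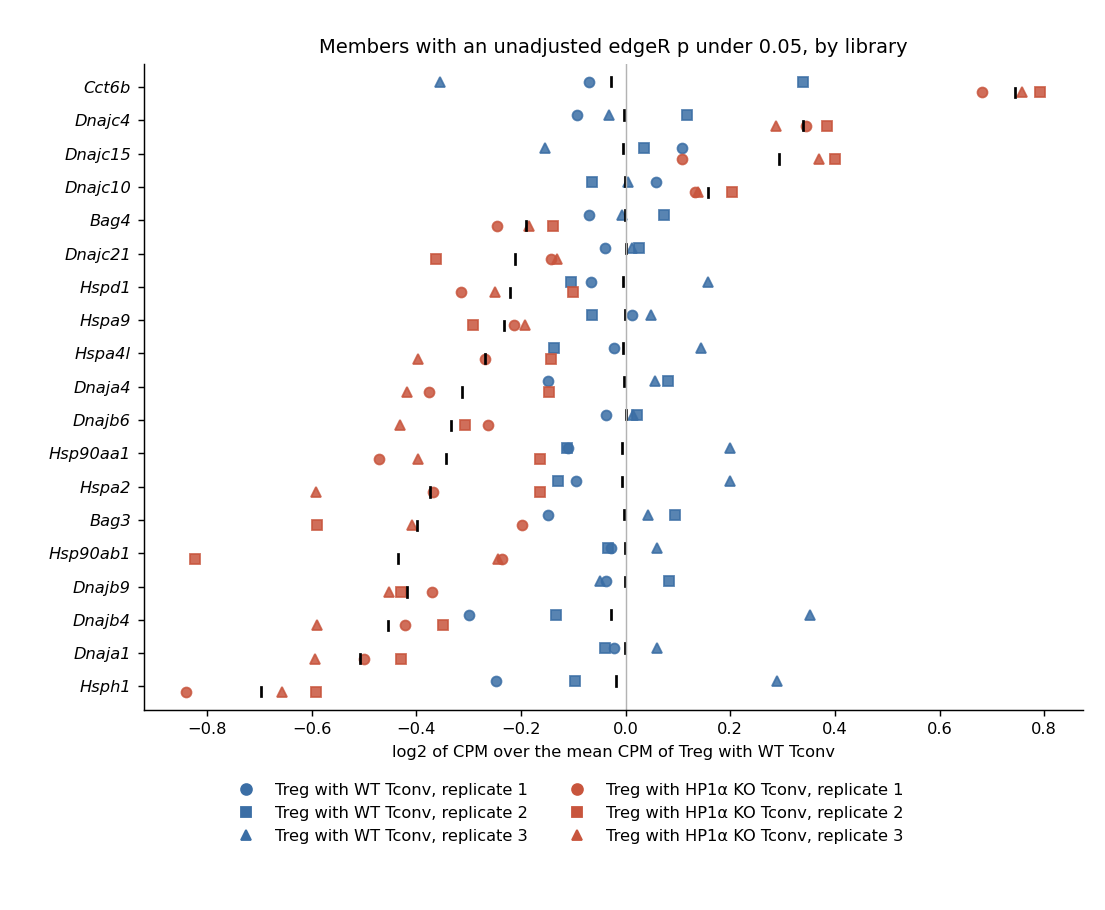
The 19 members with an unadjusted edgeR p under 0.05. The horizontal axis gives the log2 of each library's CPM over the mean CPM of Treg with WT Tconv, blue symbols are the 3 libraries of Treg with WT Tconv, red symbols the 3 of Treg with HP1α KO Tconv, symbol shapes mark the replicate number, and black bars are the means of the log2 values. The 15 lower members lie between -0.19 and -0.69, and in Hsp90ab1 replicate 2 of the HP1α KO Tconv group lies apart from the other 2 libraries of its group.

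In the plot of these members by library, the group means of each differed by less than a factor of 2. The members are described in turn by family, from the J-domain proteins that load clients to the machines that fold them.

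Of the type A J-domain proteins, which resemble bacterial DnaJ over their whole length, Dnaja1 had the smallest p of any member. It lies on chromosome 4 (ENSMUSG00000028410, GRCm39 chr4:40722056-40737149, plus strand). Its level was 466, 461 and 494 CPM in replicates 1, 2 and 3 of the WT Tconv group and 335, 352 and 314 CPM in those of Treg with HP1α KO Tconv. The groups did not overlap, and the lowest library of the first stood well above the highest of the second. The mean was 474 CPM ± 17.6 (SD, n = 3) against 334 CPM ± 19.1 (SD, n = 3), and the log2 fold change was -0.51 (standard error 0.0712). DESeq2 gave an adjusted p of 1.52e-05, which was 0.000392 without replicate 3 of the WT Tconv group. Dnaja1 is the J-domain partner of Hspa8 in the cytosol and its promoter is a known target of Hsf1.

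Reads of Dnaja1 may be shared with other genes. Its transcript is 99.4% identical over 1194 bases to the processed pseudogene Gm15542, and 2 further copies are in the table. The copies together held at most 3.30% of the summed counts of a library, and the log2 ratio of the group means was -0.51 with the copies added, as it was without. Of the exonic bases of Dnaja1, 77.9% overlap exons of Smu1 on the opposite strand. The kit marks strand, but whether the counting used it is not given in the sources used here. Smu1 itself held 9846 to 13562 counts, against 27707 to 57791 counts of Dnaja1.

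A stretch of the Dnaja1 promoter is shown because it holds the base pattern that heat shock factors bind. That pattern is a row of units of 5 bases centred on GAA or its reverse complement TTC in alternating orientation, searched for here in its shortest form, GAANNTTC, which reads the same on both strands. The window ran from 250 bases before to 50 bases after the canonical transcript start of each gene. It held the pattern in 10 of 81 members (12.3%), beside 7.41% of 21770 protein-coding genes, and the capitals below mark it.
Dnaja1, GRCm39 chr4:40722333-40722362, plus strand, bases -135 to -106 from the start: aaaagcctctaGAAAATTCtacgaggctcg
A match describes letters in this window and no binding was measured. The 10 members with a match were Dnaja1, Dnajb1, Dnajb4, Dnajc6, Dnajc27, Hspa1a, Hspa1b, Hspb1, Hspd1 and Hspe1. They are not independent, since Hspd1 and Hspe1 share the same site and Hspa1a and Hspa1b have identical stretches. Dnajb6, Dnajb9 and Hsph1, the others that DESeq2 called, had no match, nor had Hsp90aa1, Hsp90ab1, Hspa4l and Bag3.

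The other type A members were Dnaja2, Dnaja3 and Dnaja4. Dnaja4 was at 39.9, 46.7 and 45.9 CPM with WT Tconv and at 34.0, 39.9 and 33.0 CPM with HP1α KO Tconv. Replicate 1 of the first group and replicate 2 of the second met at the edge, so the groups overlapped, and the log2 fold change was -0.31 (standard error 0.0987, edgeR adjusted p = 0.241). Skic8 overlaps 21.6% of its exonic bases on the opposite strand. Dnaja2, which like Dnaja1 works with Hspa8 in the cytosol, was at 175 to 187 CPM against 163 to 171 CPM. Those ranges did not overlap, but the difference was small, with a log2 fold change of -0.12 and an edgeR adjusted p of 0.407. Dnaja3, which works in mitochondria, was the exception at a log2 fold change of 0.11 with overlapping groups.

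Among the 11 type B J-domain proteins, 9 had a log2 fold change below 0, and in 5 the groups did not overlap (45.5%, beside 11.6% of all genes on the lower side). Dnajb9 (ERdj4) sits in the endoplasmic reticulum, where it acts with Hspa5 on misfolded proteins and represses the stress sensor Ire1. Its levels were 99.1, 108 and 98.3 CPM with WT Tconv and 78.7, 75.6 and 74.3 CPM with HP1α KO Tconv. All 3 libraries of the second group lay within a narrow range below the first. The log2 fold change was -0.42 (standard error 0.0664), with a DESeq2 adjusted p of 0.000676, and it was -0.44 without replicate 3 of the WT Tconv group.

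Dnajb6, a cytosolic and nuclear member known to suppress aggregation of polyglutamine proteins, was at 199, 207 and 206 CPM against 170, 165 and 151 CPM. Here too the groups did not overlap and each was tight. The log2 fold change was -0.33 (standard error 0.0671) and the DESeq2 adjusted p 0.0112. It shares long stretches with 5 processed pseudogenes, which held at most 1.22% of the summed counts.

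Dnajb4, a cytosolic partner of HSP70, was at 31.9, 35.8 and 50.1 CPM against 29.3, 30.8 and 26.1 CPM. The groups did not overlap, but replicate 3 of the WT Tconv group was 1.40 times the next library. The log2 fold change of -0.45 (standard error 0.170, edgeR adjusted p = 0.303) was -0.24 without that library. The same library was 1.89 times the next for Dnajb2, a member best known in neurons, and 2.97 times for Dnajb3, which had 18 to 112 counts. Without it the log2 fold change went from -0.56 to -0.18 for Dnajb2 and from -1.17 to -0.22 for Dnajb3. Both were picked out here after their values were seen.

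Dnajb1, the main heat-induced J-domain partner of HSP70, was at 132, 135 and 169 CPM with WT Tconv and at 108, 138 and 118 CPM with HP1α KO Tconv. The ranges overlapped, and the log2 fold change was -0.26 (standard error 0.125, edgeR adjusted p = 0.389), or -0.14 without replicate 3 of the WT Tconv group. Dnajb11, a co-chaperone of Hspa5, was at 129 to 133 CPM against 115 to 125 CPM, with a log2 fold change of -0.12. The other type B members tested were Dnajb5, Dnajb12, Dnajb13 and Dnajb14, whose log2 fold changes lay between -0.12 and 0.11 with overlapping groups. Of the exonic bases of Dnajb13, 30.6% overlap Ucp2 on the opposite strand, which held 25107 to 36163 counts, against 876 to 1195 counts of Dnajb13.

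The 25 Dnajc genes are a mixed class that shares only the J domain. Their median log2 fold change was 0.06, and 16 of 25 were above 0. At an unadjusted p under 0.05 there were 3 higher, Dnajc4, Dnajc10 and Dnajc15 (12%, beside 6.98% of all genes), and 1 lower, Dnajc21 (4%, beside 7.52%). Without replicate 3 of the WT Tconv group 2 of 25 were higher, beside 1021 of 18678 genes. Without replicate 2 of the HP1α KO Tconv group 1 of 25 was higher, beside 1397 of 18799 genes. In 8 members every library of Treg with HP1α KO Tconv was above every library of the other group (32.0%, beside 11.5% of all genes). DESeq2 called no Dnajc member with all libraries. It called Dnajc4 higher without replicate 2 of the WT Tconv group (adjusted p = 0.0354) and Dnajc15 without replicate 1 of the HP1α KO Tconv group (adjusted p = 0.0350).

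Dnajc4 was at 10.3, 11.9 and 10.7 CPM against 13.9, 14.3 and 13.4 CPM. The groups did not overlap, and the log2 fold change was 0.34 (standard error 0.0979, edgeR adjusted p = 0.224), the highest among members with over 100 counts in every library. Dnajc15, a mitochondrial member of the import motor, was at 34.6, 32.9 and 28.9 CPM against 34.7, 42.4 and 41.6 CPM. Replicate 1 of each group lay side by side, and the log2 fold change was 0.30 (standard error 0.104, edgeR adjusted p = 0.263). Dnajc10 (ERdj5), a reductase of the endoplasmic reticulum that acts with Hspa5, was at 81.0, 74.4 and 78.1 CPM against 85.3, 89.6 and 85.7 CPM, a log2 fold change of 0.16.

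On the lower side, Dnajc21, which acts in ribosome maturation, was at 33.9, 35.5 and 35.2 CPM against 31.6, 27.1 and 31.8 CPM. Its log2 fold change was -0.21, or -0.14 without replicate 2 of the HP1α KO Tconv group. The 21 other Dnajc genes had log2 fold changes between -0.25 and 0.24. The lowest of these was Dnajc7, which binds both HSP70 and HSP90. It was at 149, 138 and 136 CPM against 142, 75.0 and 138 CPM, so that 1 library, replicate 2 of the HP1α KO Tconv group, set its mean (chosen after its values were seen). Without it the log2 fold change was -0.01. Dnajc8, a splicing-associated member with the highest level per kilobase of its class, was at 137 to 147 CPM against 138 to 140 CPM.

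**Figure D2:**
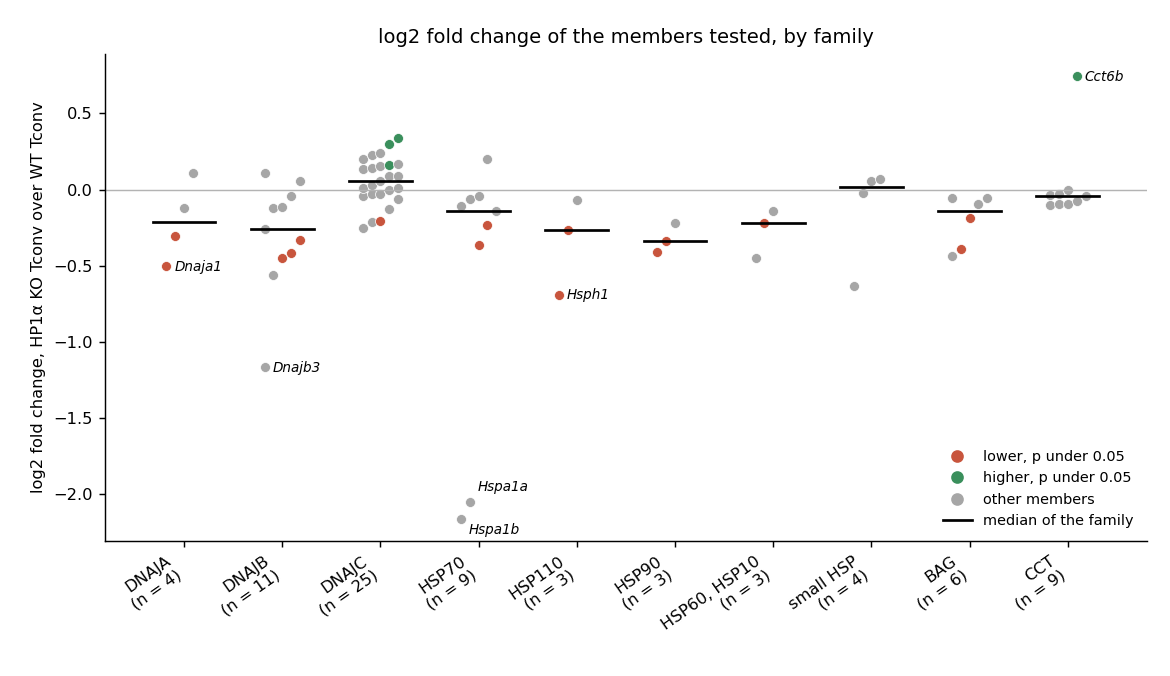
log2 fold change (HP1α KO Tconv group over WT Tconv group) of each of the 77 members tested, by family. Each point is a gene, red and green points are members with an unadjusted edgeR p under 0.05, and black lines are family medians. The medians were below 0 in every family except DNAJC (0.06) and the small heat shock proteins (0.02), and Hspa1a and Hspa1b lie lowest without passing the test.

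The plot of log2 fold changes by family gives the medians side by side. They were -0.22 for DNAJA, -0.26 for DNAJB, -0.14 for HSP70, -0.27 for HSP110, -0.34 for HSP90, -0.22 for HSP60 with HSP10, -0.14 for BAG and -0.04 for CCT. The median over all members was -0.07, beside -0.01 over all genes tested. These medians rest on 3 to 25 genes each and carry no test. Several moved when 1 library was left out. Without replicate 3 of the WT Tconv group the DNAJB median was -0.14, that of HSP60 with HSP10 -0.13 and that of BAG -0.07, and that of the small heat shock proteins turned to -0.05. The HSP70 median ranged from -0.24 without replicate 2 to -0.06 without replicate 3 of the HP1α KO Tconv group. The CCT median ranged from -0.0998 without replicate 2 to -0.0046 without replicate 1 of that group.

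Of the HSP70 proteins, the 2 most abundant differed by less than the spread within groups. Hspa8 (ENSMUSG00000015656, chr9:40711630-40731039, plus strand) was at 3473, 3421 and 3813 CPM with WT Tconv and at 2971, 3876 and 3074 CPM with HP1α KO Tconv. Replicate 2 of the second group was the highest of all 6 libraries while its partners were the lowest, so the spread within that group exceeded the difference. The log2 fold change was -0.11 (standard error 0.115, edgeR adjusted p = 0.693), and -0.24 without that replicate, when DESeq2 called it (adjusted p = 0.0139). It was -0.025 without replicate 1 and -0.059 without replicate 3 of that group, and -0.060 without replicate 3 of the WT Tconv group. A set of 5 processed pseudogenes matched Hspa8 over most of its transcript, and together they held at most 2.55% of the summed counts.

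Hspa5 was at 1230, 1315 and 1302 CPM against 1177, 1427 and 1134 CPM. Replicate 2 was again the highest of the second group, and the log2 fold change was -0.04 (standard error 0.0989, edgeR adjusted p = 0.874). Of its exonic bases, 44.2% overlap Rabepk on the opposite strand, which held 1448 to 1911 counts, against 100140 to 152384 counts of Hspa5. Hspa9 (mortalin), the HSP70 of mitochondria, was more even. It was at 167, 159 and 172 CPM against 143, 135 and 145 CPM, with groups that did not overlap and a log2 fold change of -0.23 (standard error 0.0641, edgeR adjusted p = 0.218, DESeq2 adjusted p = 0.0861). Hspa2, known for its role in the male germ line, was at 12.2, 11.9 and 14.9 CPM against 10.1, 11.6 and 8.61 CPM, a log2 fold change of -0.36 (edgeR adjusted p = 0.303), or -0.25 without replicate 3 of the WT Tconv group, and 30.7% of its exonic bases overlap a long non-coding RNA on the opposite strand.

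Hspa1a and Hspa1b had the largest fold changes of all members tested, and both rested on 1 library. Hspa1b (ENSMUSG00000090877, chr17:35175412-35178214, minus strand) had 487, 986 and 5903 counts with WT Tconv against 190, 582 and 596 counts beside HP1α KO Tconv. Hspa1a (ENSMUSG00000091971, chr17:35188166-35191132, minus strand) had 263, 566 and 3582 counts, and 113, 492 and 290 counts. In CPM, replicate 3 of the WT Tconv group was 4.94 times the next library for Hspa1b and 5.22 times for Hspa1a, while the other 5 libraries ran from 2.09 to 10.2 CPM and from 1.24 to 5.86 CPM. The log2 fold changes were -2.16 (standard error 1.10) for Hspa1b and -2.05 (standard error 1.15) for Hspa1a, with edgeR adjusted p-values of 0.467 and 0.503. Without that library they were -0.64 and -0.45, with groups that overlapped. This is the library in which the red cell, neutrophil and macrophage genes were highest, and their part in the result was not tested.

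The Hspa1a and Hspa1b transcripts are 99.2% identical over 2201 bases, so their reads can be assigned to either gene. Summed, they were at 7.80, 16.1 and 81.0 CPM against 3.33, 10.8 and 10.0 CPM, with a log2 ratio of the group means of -2.12. Their promoters are shown because the stretches around the heat shock pattern, in capitals, are the same in all 80 bases, although the starts are 12918 bases apart. That of Hspb1 is set beside them, since it holds the pattern in 2 places in a gene with almost no reads here.
Hspa1a, GRCm39 chr17:35191193-35191272, minus strand, bases -140 to -61: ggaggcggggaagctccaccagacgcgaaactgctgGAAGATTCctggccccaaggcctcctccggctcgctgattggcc
Hspa1b, GRCm39 chr17:35178275-35178354, minus strand, bases -140 to -61: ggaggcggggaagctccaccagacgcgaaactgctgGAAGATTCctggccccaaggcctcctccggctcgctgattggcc
Hspb1, GRCm39 chr5:135916620-135916699, plus strand, bases -140 to -61: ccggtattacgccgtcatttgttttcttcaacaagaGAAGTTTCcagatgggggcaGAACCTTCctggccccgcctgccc

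**Figure D3:**
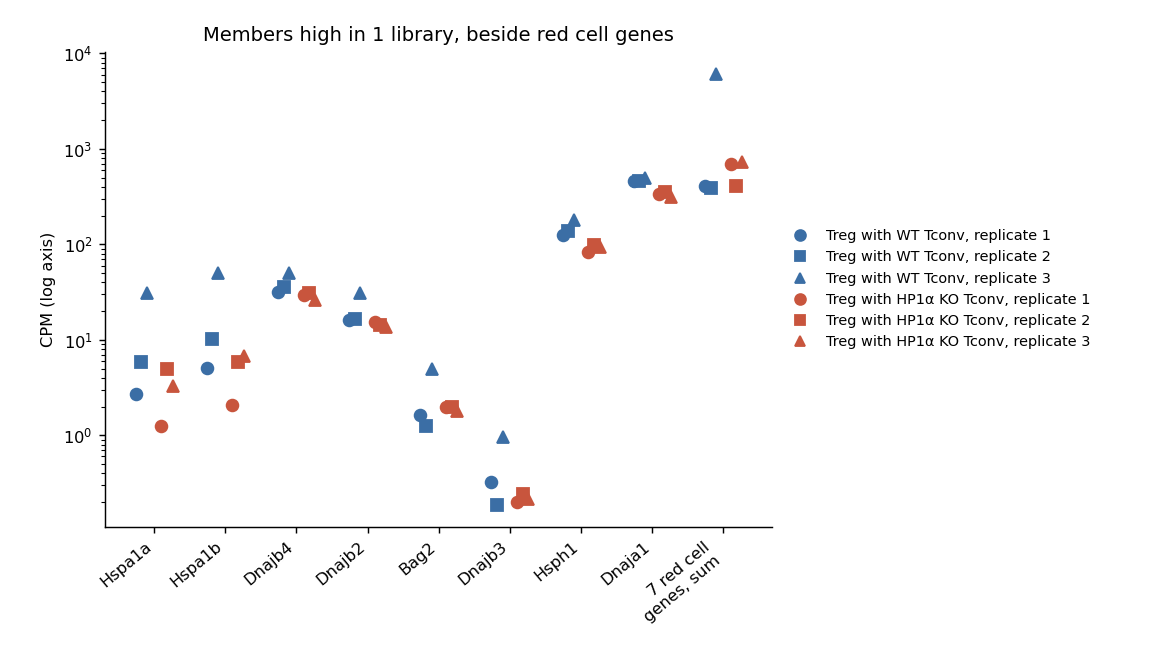
Levels of 8 members and the summed level of 7 red cell genes in each library, in CPM on a log axis, with blue symbols for Treg with WT Tconv, red symbols for Treg with HP1α KO Tconv and shapes for replicates. Replicate 3 of the WT Tconv group (blue triangle) is highest for every gene shown, by 5.22 times the next library for Hspa1a, while Dnaja1 and Hsph1 separate the groups also by the other libraries.

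The remaining HSP70 genes were Hspa12a, Hspa13 and Hspa14, at log2 fold changes of 0.20, -0.14 and -0.06 with overlapping groups, and 2 that were not tested. Without replicate 2 of the HP1α KO Tconv group Hspa13 was at -0.32, and DESeq2 called it (adjusted p = 0.00411), while without replicate 3 of that group it was at -0.024. Hspa14 overlaps Msantd7 on the same strand over 28.6% of its exonic bases. Hspa1l, expressed in testis, had 0 to 2 counts per library. Hspa12b had 16 counts in replicate 3 of the WT Tconv group and 0 or 1 in the other libraries.

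The HSP110 proteins are large relatives of HSP70 that exchange its nucleotide. Hsph1 (Hsp105, ENSMUSG00000029657, chr5:149537636-149560156, minus strand), a known Hsf1 target, had the lowest log2 fold change of the 19 members with an unadjusted p under 0.05. It was at 125, 138 and 181 CPM with WT Tconv and at 82.7, 98.2 and 93.8 CPM with HP1α KO Tconv. The groups did not overlap, and replicate 3 of the WT Tconv group was 1.31 times the next library. The log2 fold change was -0.69 (standard error 0.143) and the DESeq2 adjusted p 0.000276, and without that replicate these were -0.52 and 0.00258.

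Hspa4l, the second member of the family, was at 98.9, 91.3 and 111 CPM against 83.3, 91.0 and 76.3 CPM. The ranges all but touched, between replicate 2 of either group, and the log2 fold change was -0.27 (standard error 0.0956, edgeR adjusted p = 0.272). Hspa4, the most abundant per kilobase, had overlapping groups, at 211 to 226 CPM against 196 to 217 CPM, with a log2 fold change of -0.07.

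All 3 HSP90 genes were lower with groups that did not overlap, as 11.6% of all genes were. Hsp90aa1 was at 841, 840 and 1042 CPM against 655, 810 and 690 CPM, a log2 fold change of -0.34 (standard error 0.116, edgeR adjusted p = 0.257), or -0.23 without replicate 3 of the WT Tconv group. The nearest libraries were replicate 2 of either group. The pseudogenes Gm12346 and Gm5844 match it over 2255 and 2202 bases, and held at most 0.910% of the summed counts. Hsp90ab1 was at 1589, 1581 and 1687 CPM against 1374, 915 and 1367 CPM. Replicate 2 of the HP1α KO Tconv group lay far below its partners, and the log2 fold change was -0.41 (standard error 0.154, edgeR adjusted p = 0.294), or -0.24 without it. Without it DESeq2 called both Hsp90ab1 (adjusted p = 0.00146) and Hsp90aa1 (adjusted p = 0.00332).

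Hsp90b1 was at 611, 606 and 576 CPM against 561, 427 and 549 CPM. The same replicate was lowest, and the log2 fold change was -0.22 (standard error 0.107, edgeR adjusted p = 0.392), or -0.11 without it. That library was therefore high for Hspa8 and Hspa5 and low for Hsp90ab1, Hsp90b1, Dnajc7 and Bag6. Without it all 3 HSP90 genes remained below 0.

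In mitochondria, Hspd1 (HSP60) was at 205, 200 and 239 CPM against 173, 200 and 181 CPM. Replicate 2 of the second group reached the lowest of the first, and the log2 fold change was -0.22 (standard error 0.0916, edgeR adjusted p = 0.329), or -0.13 without replicate 3 of the WT Tconv group. Its partner Hspe1 (HSP10) was at 104, 106 and 116 CPM against 91.4, 114 and 90.4 CPM, a log2 fold change of -0.14, or -0.26 without replicate 2 of the HP1α KO Tconv group, when DESeq2 called it (adjusted p = 0.00997). Without replicate 1 or 3 of that group it was -0.075 and -0.079.

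Hspd1 and Hspe1 start 108 bases apart on opposite strands. The stretch between the starts is shown because it was the only one among the members to hold 3 alternating units, that is GAANNTTC followed by 2 bases and a further unit, which was found in 0.478% of the 21770 promoters. Capitals mark 4 units in a row, read along the strand of Hspd1.
Hspd1, GRCm39 chr1:55127212-55127241, minus strand, bases -58 to -29: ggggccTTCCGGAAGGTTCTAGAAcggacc

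Small heat shock proteins, which hold denatured proteins in soluble complexes, were nearly absent. Hspb1 had 28, 47 and 26 counts with WT Tconv and 17, 37 and 7 with HP1α KO Tconv, and the log2 fold change of -0.64 had a standard error of 0.583 and ranged from -1.31 to -0.25 with 1 library left out. Hspb6 had 134 to 241 counts and Hspb9 had 21 to 31. Hspb9 lies wholly within exons of Rab5c on the opposite strand, which held 12547 to 16750 counts. Hspb7, with 0 to 6 counts, and Hspb8, with 1 count in 1 library, were not tested. Hspb11, which later annotation names Ift25 as a component of cilia transport, was the most abundant at 6.60 to 6.75 CPM against 6.72 to 7.16 CPM.

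All 6 BAG co-chaperones, which bind HSP70 through the BAG domain, had log2 fold changes below 0, and 2 of them had groups that did not overlap (33.3%, beside 11.6% of all genes). Bag3, a heat-induced factor that steers clients to autophagy, was at 13.9, 16.4 and 15.8 CPM against 13.4, 10.2 and 11.6 CPM. The difference was a log2 fold change of -0.39 (standard error 0.125, edgeR adjusted p = 0.241, DESeq2 adjusted p = 0.0801). Bag4 was at 33.1, 36.6 and 34.6 CPM against 29.3, 31.6 and 30.6 CPM, a log2 fold change of -0.19. Bag1, which also binds Bcl-2, had overlapping groups, at 98.5 to 102 CPM against 91.2 to 103 CPM. Bag6, which guards proteins bound for membranes, was at 122 to 133 CPM against 133, 90.9 and 139 CPM, and its log2 fold change of -0.10 became 0.07 without replicate 2 of the HP1α KO Tconv group. Bag5 was at -0.06 and Bag2 at -0.44, the latter with 573 counts in replicate 3 of the WT Tconv group and 120 to 198 in the others, and at 0.42 without that library. Bag2, too, was picked out after its values were seen.

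The 8 tested subunits of the CCT ring that T cells express, Tcp1, Cct2, Cct3, Cct4, Cct5, Cct6a, Cct7 and Cct8, lay together between log2 fold changes of -0.10 and -0.01. Tcp1 was at 272, 248 and 287 CPM against 237, 272 and 248 CPM. Cct2 was at 299, 290 and 294 CPM against 280, 320 and 280 CPM. In both, as in Hspa8 and Hspa5, replicate 2 was the highest of the HP1α KO Tconv group, and the ranges overlapped. Of the 8, Cct4 had groups that did not overlap, at 204 to 211 CPM against 189 to 203 CPM. With library totals as the sole scaling, the log2 fold change of Cct2 was 0.034 and the family median was -0.0030. Cct6b, the testis-type subunit, had 27, 36 and 27 counts against 43, 51 and 44 counts, a log2 fold change of 0.75 (standard error 0.321, edgeR adjusted p = 0.342).

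**Figure D4:**
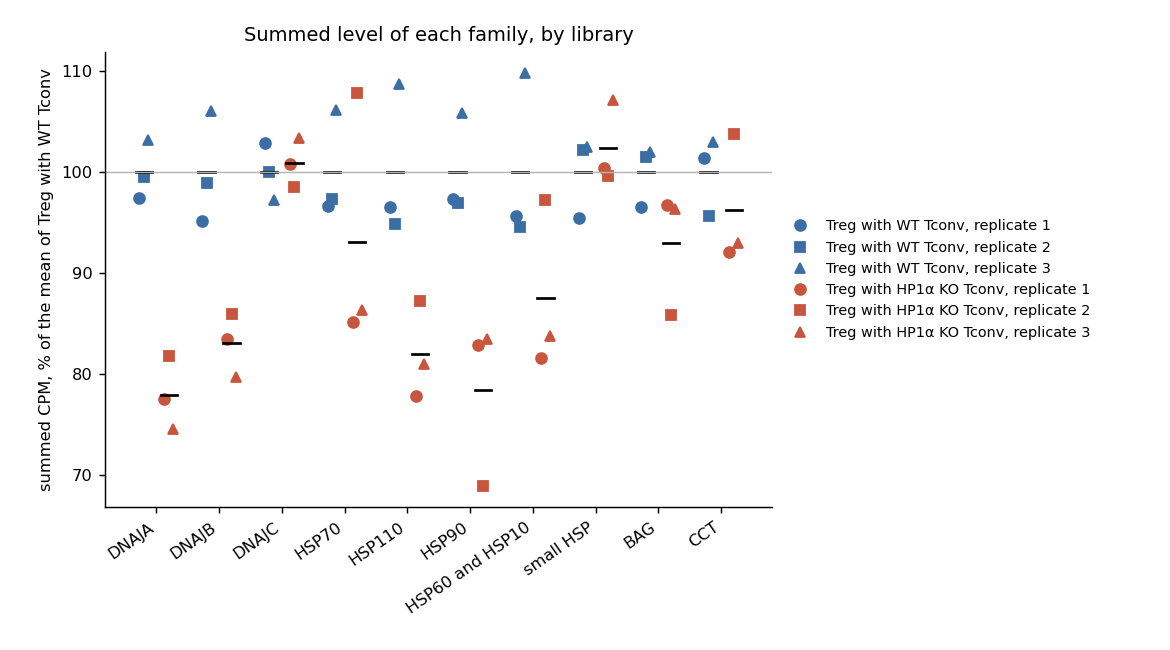
Summed CPM of each family in each library, as a percentage of the mean of Treg with WT Tconv, with blue symbols for Treg with WT Tconv, red symbols for Treg with HP1α KO Tconv, shapes for replicates and black bars for group means. The axis does not start at 0. The sums of DNAJA, DNAJB, HSP110 and HSP90 do not overlap between groups, and the HSP70 sum of replicate 2 of the HP1α KO Tconv group is the highest of all 6.

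Summed by family, which weights each gene by its abundance, the DNAJA genes were at 730 CPM ± 21.2 (SD, n = 3) in the WT Tconv group against 569 CPM ± 26.3 (SD, n = 3) in the other, a difference of -22.1%. Most of that difference was Dnaja1, at 474 against 334 CPM. Dnaja2 was at 182 against 167 CPM, Dnaja4 at 44.1 against 35.6 CPM, and Dnaja3 was higher, at 30.1 against 32.4 CPM. The HSP90 sum was 3124 CPM ± 157 (SD, n = 3) against 2449 CPM ± 258 (SD, n = 3), or -21.6%. The HSP110 and DNAJB sums differed by -18.0% and -17.0%. In these 4 families the libraries of the groups did not overlap, but single libraries weighed on some of the sums. Replicate 2 of the HP1α KO Tconv group had an HSP90 sum of 2152 CPM, beside 2590 and 2606 CPM in its partners. Replicate 3 of the WT Tconv group had 506 CPM for HSP110, beside 449 and 441 CPM. For DNAJB it had 759 CPM, beside 681 and 708 CPM. The sums of HSP60 with HSP10 (-12.5%), BAG (-7.03%), HSP70 (-6.94%) and CCT (-3.75%) had overlapping libraries, as had those of DNAJC (0.839%) and the small heat shock proteins (2.36%). With 1 library left out in turn, the HSP70 sum ranged from -14.3% without replicate 2 to -2.96% without replicate 1 of the HP1α KO Tconv group, and the CCT sum from -7.48% to -1.64% without the same libraries. The BAG sum was -3.47% without that replicate 2, and the sum of HSP60 with HSP10 was -7.96% without replicate 3 of the WT Tconv group. The DNAJC sum turned to -0.561% without the latter library. All members together were at 14210 CPM ± 573 (SD, n = 3) against 12686 CPM ± 574 (SD, n = 3), a difference of -10.7%. Here replicate 3 of the WT Tconv group was at 14871 CPM, beside 13920 and 13840 CPM. Replicate 2 of the HP1α KO Tconv group was at 13346 CPM, beside 12303 and 12409 CPM. In a bulk sample, fewer cells that express a gene and less of its RNA per cell cannot be told apart.

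Members were also grouped by where they act and how they are induced, in lists drawn up with earlier results of these data known, so that their counts are a description. The 14 members listed as heat-inducible were Hspa1a, Hspa1b, Hspa8, Hspa4, Hspa4l, Hsph1, Hsp90aa1, Hsp90ab1, Hspd1, Hspe1, Hspb1, Dnaja1, Dnajb1 and Bag3. All had log2 fold changes below 0 with a median of -0.36, 7 were lower at an unadjusted p under 0.05 and none was higher (50.0%, beside 7.52% of all genes). The 7 were Dnaja1, Hsph1, Hsp90aa1, Hsp90ab1, Hspa4l, Hspd1 and Bag3. Of the 14, Hspa8 and Hsp90ab1 were named above as constitutive members, and Hsp90ab1 is among the 7 lower ones. Without replicate 3 of the WT Tconv group the count was 3 (21.4%, beside 5.72% of all genes) and the median -0.30, and without replicate 2 of the HP1α KO Tconv group the count was 10 (71.4%, beside 8.92%). Of 8 members of the endoplasmic reticulum lumen, 1 was lower (Dnajb9) and 1 higher (Dnajc10), 12.5% each, beside 7.52% and 6.98% of all genes, with a median of -0.08. Without replicate 2 of the HP1α KO Tconv group 4 were lower (50.0%, beside 8.92%) and 0 higher, with a median of -0.12. Of 7 mitochondrial members, Hspa9 and Hspd1 were lower (28.6%, beside 7.52%) and Dnajc15 higher (14.3%, beside 6.98%), with a median of 0.01. Without replicate 3 of the WT Tconv group 1 was lower (14.3%, beside 5.72%). Without replicate 2 of the HP1α KO Tconv group 3 were lower (42.9%, beside 8.92%) and 0 higher, with a median of -0.05. Of the 50 tested members in none of these groups, 6 were lower (12%, beside 7.52%) and 2 higher (4%, beside 6.98%), with a median of -0.04. The lower ones were 2 (4%, beside 5.72% of all genes) without replicate 3 of the WT Tconv group.

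In the endoplasmic reticulum, 3 members carry the stress response element of that compartment, CCAAT, 9 bases and CCACG, which was found in 0.124% of the 21770 promoters. Their stretches are shown, with the element in capitals, because the members share these letters. The log2 fold changes were -0.04, -0.22 and 0.15 for Hspa5, Hsp90b1 and Dnajc3. In Hsp90b1 the element shown is on the opposite strand, and a second match further from the start is not shown.
Hspa5, GRCm39 chr2:34662031-34662060, plus strand, bases -73 to -44: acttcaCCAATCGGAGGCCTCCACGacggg
Hsp90b1, GRCm39 chr10:86541392-86541421, minus strand, bases -43 to -14: agagtgCGTGGTGAGGCACGATTGGtgagt
Dnajc3, GRCm39 chr14:119175220-119175289, plus strand, bases -125 to -56: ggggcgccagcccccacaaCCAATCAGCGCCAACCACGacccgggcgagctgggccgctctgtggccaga
Dnajb9 had no match in its window.

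The genes that work with the members were read from the same fit. Hsf1, the factor itself, differed by less than its spread, at 43.4, 47.0 and 49.2 CPM against 48.1, 45.1 and 45.4 CPM, with a log2 fold change of -0.01 (standard error 0.0732, edgeR adjusted p = 0.961). Hsf2 was at 33.0, 35.4 and 36.6 CPM against 27.5, 31.1 and 22.8 CPM, and its log2 fold change was -0.37 (edgeR adjusted p = 0.236).

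Of 16 HSP90 co-chaperones, 5 were lower and 2 higher at an unadjusted p under 0.05 (31.2% and 12.5%, beside 7.52% and 6.98% of all genes), with a median log2 fold change of -0.02. The lower ones were 3 without replicate 3 of the WT Tconv group (18.75%, beside 5.72% of all genes). Ptges3 (p23), which locks HSP90 on its client, was at 165, 167 and 170 CPM against 133, 112 and 134 CPM, a log2 fold change of -0.41 with a DESeq2 adjusted p of 0.00449. Stip1 (Hop), which hands clients from HSP70 to HSP90, was at 172, 168 and 184 CPM against 141, 115 and 137 CPM, a log2 fold change of -0.42 with a DESeq2 adjusted p of 0.00545. In both, as in Hsp90ab1, replicate 2 of the HP1α KO Tconv group was the lowest library, and the groups did not overlap. With 1 library left out in turn, the DESeq2 adjusted p reached 0.0432 for Ptges3 and 0.0619 for Stip1. Chordc1 (-0.26), Fkbp4 (-0.26) and Ahsa2 (-0.24) were the other lower ones, and the ubiquitin ligase Stub1 (0.20) and Ttc4 (0.20) the higher ones.

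Of 8 genes that exchange nucleotide on HSP70 or bind it, St13 (Hip) was lower at an unadjusted p under 0.05, with a log2 fold change of -0.19 (edgeR adjusted p = 0.229), and Hspbp1 higher with 0.34 (edgeR adjusted p = 0.215). These were 12.5% each, beside 7.52% and 6.98% of all genes. Of 6 prefoldin genes, whose product hands actin and tubulin to CCT, Vbp1 was lower by the same measure (16.7%) with -0.29 (edgeR adjusted p = 0.209). Of 14 immediate early genes, which tissue handling is known to induce together with Hspa1a and Hspa1b, Egr1 (-0.32) and Dusp1 (-0.22) were lower and Fos (0.30) was higher at an unadjusted p under 0.05 (14.3% and 7.14%, beside 7.52% and 6.98% of all genes). Without replicate 3 of the WT Tconv group 1 of the 14 was lower (7.14%, beside 5.72% of all genes). In that fit 2 of the 14 were higher, beside 1021 of 18678 genes. The median of the 14 was 0.03, or 0.14 without replicate 3 of the WT Tconv group and -0.13 without replicate 2 of the HP1α KO Tconv group. Replicate 3 of the WT Tconv group was the highest library for Atf3 and Ier3 of this list, at 63.3 and 4.65 CPM against 20.2 to 44.4 and 1.14 to 1.92 CPM. Both were chosen after their values were seen, and their part in the results for Hspa1a and Hspa1b was not tested. That library was the highest for 4 of the 14 genes (also Dusp1 and Socs3), beside 19.97% of all genes tested. Replicate 2 of the HP1α KO Tconv group was the highest for 6 of the 14, beside 21.9% of all genes tested.

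Replicate 3 of the WT Tconv group was the highest library for 24 of 77 members (31.2%, beside 19.97% of all genes tested). Replicate 2 of the HP1α KO Tconv group was the highest for 21 of 77 (27.3%, beside 21.9%), and replicate 1 of that group for 0 of 77 (0%, beside 10.6%). Replicates 1 and 3 of the HP1α KO Tconv group were each the lowest for 19 members (24.7%, beside 10.3% and 19.7%). Leaving out replicate 3 of the WT Tconv group brought the members that were lower at an unadjusted p under 0.05 from 15 to 7 (9.09%, beside 5.72% of all genes). Leaving out replicate 1 or 3 of the HP1α KO Tconv group brought them to 7 (beside 6.04%) and 9 (11.7%, beside 5.29%). Leaving out replicate 2 of that group brought them to 22 (28.6%, beside 8.92%).

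**Figure D5:**
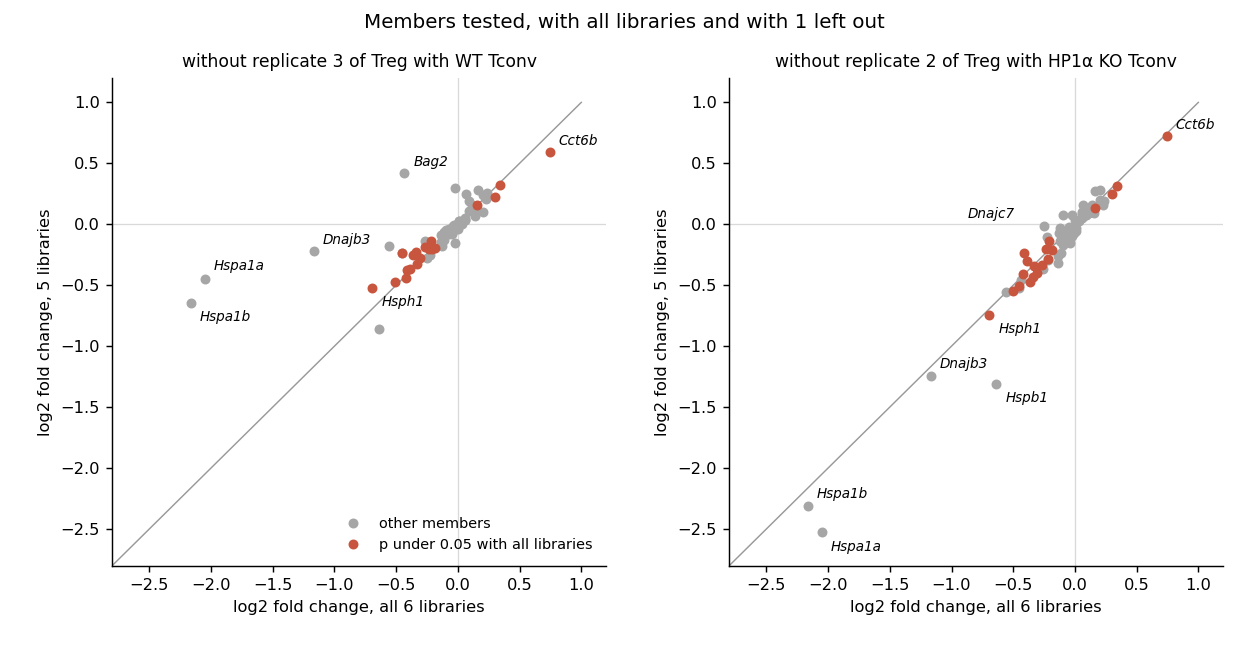
log2 fold change of the 77 members tested with all 6 libraries (horizontal axis) and with 1 library left out (vertical axis), without replicate 3 of the WT Tconv group on the left and without replicate 2 of the HP1α KO Tconv group on the right. Points on the diagonal line did not move, and red points had an unadjusted edgeR p under 0.05 with all libraries. Hspa1a and Hspa1b move from -2.05 and -2.16 to -0.45 and -0.64 on the left.

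The plot of fold changes with 1 library left out shows that most members stayed near the diagonal. Dnaja1, Dnajb6, Dnajb9, Hsph1, Hspa9 and Dnajc4 had an unadjusted p under 0.05 in all 12 fits by edgeR, which differed in the scaling, the filter, the block or the libraries. In single fits of these 12, 9.87% to 16.4% of all genes had such a p. The share of all genes that had it in every fit was not counted, and the fits reuse most libraries, so they are not independent. Without replicate 3 of the WT Tconv group the median log2 fold change was -0.06 over the members, beside 0.01 over all genes.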

How the data were processed

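Total RNA libraries were made with a stranded kit. According to the methods and the submitters' processing notes, the authors ran the nf-core RNA-seq pipeline, with STAR for alignment to GRCm39 and Salmon for quantification. What they deposited is 1 table of estimated counts, unnormalized and already whole, in which reads that fit several genes are divided by a model. The 64 genes that carry an identifier but no symbol (0.0231% of counts) were kept, and every column of per-sample values was used.

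All genes were fitted at once in edgeR 4.0.16 under R 4.3.3, with TMM factors, filterByExpr, robust glmQLFit and glmQLFTest, and group as the sole term. The Benjamini-Hochberg adjustment covered the 18321 genes tested. DESeq2 1.42.0 was an alternative. The procedure was also run on simulated data, from which no result is given here. A standard error was obtained by dividing the size of the log2 fold change by the root of its F statistic. CPM used library totals after filtering times their TMM factors.

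The members and gene lists were chosen with earlier results of these data known. Members were named if their unadjusted p was under 0.05 (at most 12 in each direction), if DESeq2 called them, if they had the highest level per kilobase in their family, or if they stood on a list of well-known chaperones, and among related genes Hsf1 and those with an unadjusted p under 0.05. Dnajb4 and Dnajc21 also had an unadjusted p under 0.05 but fell outside the limit of 12, and were described with their families. Alternatives changed the scaling, the filter, the tool or the replicate block, or left out 1 library. DESeq2 without each library and sums with near-identical copies (BLAST, at least 95% identity over at least 300 bases) were added after seeing the data. All 81 members matched GENCODE vM39 on GRCm39, from which positions, overlaps and promoter windows came. Results of 1 gene are not reported here.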

Additional observations from a re-analysis of the deposited data

How the results depend on the processing

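With 3 libraries a group, edgeR called 0 genes with all libraries, 38 genes and 2 members (Dnaja1 and Dnajb9) without a filter beyond 1 count, and 0 to 2 genes when each library was left out in turn. DESeq2 called 526 genes and 4 members. Leaving out replicates 1, 2 and 3 of the WT Tconv group brought its gene count to 328, 279 and 181, and leaving out those of the HP1α KO Tconv group to 681, 1413 and 332. The members it called were fewest, at 3, without replicate 3 of the WT Tconv group, where it called 1.35% of genes with an adjusted value. They were most, at 15, without replicate 2 of the HP1α KO Tconv group, where it called 11.3%. Among the 15 were Dnaja4, Dnajb1, Hspa2, Hspa4l, Hspa9 and Hspd1, none of them called with all libraries. By edgeR, 19 of 77 members had an unadjusted p under 0.05, beside 14.5% of all genes. Without replicate 3 of the WT Tconv group there were 9 of 77, a share near the 11.2% of all genes. Without replicate 2 of the HP1α KO Tconv group there were 23 of 77, beside 16.4%. The lower members ranged from 7 to 22. With library totals as the sole scaling, 11 members were lower and 7 higher, a lower share of 61.1% rather than 78.9%, and over all genes of 37.2% rather than 51.8%. The median log2 fold change of all genes was 0.03 under that scaling and -0.01 with TMM factors on the same libraries and filter. That of the members stayed below 0 under every alternative run, from -0.11 (DESeq2 without replicate 2 of the HP1α KO Tconv group) to -0.03, but not below that of all genes in each (-0.056 beside -0.061 by DESeq2 without replicate 1 of the HP1α KO Tconv group). Under that scaling Cct2 was at 0.034 and Dnajc8 at 0.0096. With each library left out, the log2 fold change ranged from -0.21 to 0.072 for Bag6, -0.072 to 0.041 for Cct2, -0.049 to 0.015 for Dnajc8 and -0.15 to 0.023 for Hspa5. The cause of these shifts was not tested.

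The groups share replicate numbers. With the replicate block edgeR called 1 gene and 0 members, and 13 members had an unadjusted p under 0.05, of which 11 were lower (14.3%, beside 6.32% of all genes). Deviations of same-numbered libraries correlated at -0.04, 0.18 and 0.12 across genes, and not every library correlated best with its own number, so the numbers were not read as pairs.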
